A study of Homo sapiens with 4 samples.

Results

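Pseudogene peaks outside coding genes were the regions of histone H4 lysine 20 trimethylation (H4K20me3) that lay over an annotated pseudogene and over no protein-coding gene. They were taken from the peak lists of proliferating (PRO) and replicative senescent (RS) IMR90 cells. A peak was counted when it shared at least 1 base with a gene of any pseudogene type in GENCODE release 44 (mapped to GRCh37) and no base with a protein-coding gene body, on chromosomes 1 to 22 without chromosome 19. This gave 1371 of 38371 peaks in both lists together, of which 151 were in PRO and 1220 in RS. IMR90 cells are primary human diploid lung fibroblasts that stop dividing after long culture. PRO cells were at population doubling 32 and RS cells at population doubling 86, when division had stopped. Each group held 2 samples of the same line, 1 for each of 2 antibodies against H4K20me3 (Millipore 04-079 and Cell Signaling 5737), and was represented by 1 list of the peaks that both antibodies shared. The lists give positions without heights, read counts or values per sample, so differences between PRO and RS have neither an error between replicates nor a test. Intervals are exact Clopper-Pearson 95% intervals. They cover counting error only and treat neighbouring regions as independent.

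Pseudogenes are copies of genes that have lost the ability to make the original protein. Processed pseudogenes arose when a messenger RNA was copied back into DNA and inserted elsewhere, so they lack introns and usually lie far from the parent gene. Unprocessed pseudogenes arose by duplication of genomic DNA and often keep introns and neighbours. Zinc finger pseudogenes, here those with a symbol that starts with ZNF, descend from genes for DNA-binding proteins built of repeated zinc finger units. H4K20me3 is a mark of silent chromatin that is well known from satellite repeats near centromeres and from other repeated DNA. Because many pseudogenes have close relatives, the question of where a peak lies is tied to how many copies of its sequence the genome holds.

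A zinc finger unit was searched as cysteine, any 2 residues, cysteine, any 12 residues, histidine, any 3 or 4 residues and histidine, without a stop, in all 6 reading frames. The following stretches each hold 1 such unit and the linker after it, 84 bases read 5′ to 3′ on the strand of the pseudogene (build GRCh37), with the codons of the 2 cysteines and the 2 histidines in capitals. The units of ZNF322P1, ZNF519P3, ZNF733P and ZNF734P lay inside RS peaks, and those of ZNF840P and ZNF204P lay in pseudogenes without a peak. The stretch was the same in ZNF733P and ZNF734P, so reads from within it cannot be told apart.
ZNF322P1, chr9:99961494-99961577 (-): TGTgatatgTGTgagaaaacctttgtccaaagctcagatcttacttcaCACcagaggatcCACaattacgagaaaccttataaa
ZNF519P3, chr15:22117740-22117823 (-): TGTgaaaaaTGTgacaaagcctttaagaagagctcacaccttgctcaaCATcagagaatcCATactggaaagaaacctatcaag
ZNF733P, chr7:62752739-62752822 (-): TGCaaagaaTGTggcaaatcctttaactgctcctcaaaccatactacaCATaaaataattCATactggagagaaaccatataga
ZNF734P, chr7:62916139-62916222 (+): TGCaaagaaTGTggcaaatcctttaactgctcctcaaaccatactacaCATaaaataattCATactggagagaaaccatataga
ZNF840P, chr20:45119585-45119668 (+): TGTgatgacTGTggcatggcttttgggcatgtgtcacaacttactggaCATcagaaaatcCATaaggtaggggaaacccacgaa
ZNF204P, chr6:27327347-27327430 (-): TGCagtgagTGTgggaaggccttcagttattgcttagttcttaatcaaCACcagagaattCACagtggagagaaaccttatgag

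The next stretches show how alike multicopy pseudogenes are. They are 75-base windows of 5 copies of DUX4L, relatives of the double homeobox gene DUX4, all inside RS peaks, with the bases that differ from DUX4L11 in capitals. DUX4L12 differed at 0 of the 75 bases, DUX4L8 at 2, DUX4L26 at 5 and DUX4L46 at 13. Reads from the first 2 copies cannot be told apart within this window.
DUX4L11, chr10:135484599-135484673 (+): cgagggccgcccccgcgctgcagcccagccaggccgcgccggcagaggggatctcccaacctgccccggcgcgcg
DUX4L12, chr10:135487908-135487982 (+): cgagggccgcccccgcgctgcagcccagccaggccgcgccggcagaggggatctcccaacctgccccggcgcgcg
DUX4L8, chr4:190989724-190989798 (+): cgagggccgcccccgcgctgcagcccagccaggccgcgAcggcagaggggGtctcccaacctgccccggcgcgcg
DUX4L26, chr3:75718716-75718790 (+): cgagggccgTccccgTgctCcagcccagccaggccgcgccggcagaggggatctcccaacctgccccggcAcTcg
DUX4L46, chr16:33944268-33944342 (-): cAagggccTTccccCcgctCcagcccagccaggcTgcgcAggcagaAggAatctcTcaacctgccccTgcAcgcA

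Copies of 1 parent could also differ in whether they carried a peak. The following windows of 150 bases come from processed copies of keratin 18, with the bases that differ from KRT18P38 in capitals. KRT18P38 and KRT18P35 lay in RS peaks, whereas KRT18P45 and KRT18P28 had no peak in either state. The differences from KRT18P38 numbered 14 in KRT18P35, 11 in KRT18P45 and 9 in KRT18P28. Among the copies shown, the one most like it within this window thus carried no peak. These copies were picked by RS coverage or by body length, and other keratin 18 copies were not compared.
KRT18P38, chr6:19613552-19613701 (+): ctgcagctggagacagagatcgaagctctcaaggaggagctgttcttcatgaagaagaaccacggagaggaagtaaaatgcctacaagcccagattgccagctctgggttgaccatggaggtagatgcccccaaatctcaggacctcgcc
KRT18P35, chr3:141190022-141190171 (-): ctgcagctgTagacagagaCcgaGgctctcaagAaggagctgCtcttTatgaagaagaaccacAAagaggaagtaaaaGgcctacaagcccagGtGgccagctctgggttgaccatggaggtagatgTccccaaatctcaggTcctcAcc
KRT18P45, chr5:79584831-79584980 (+): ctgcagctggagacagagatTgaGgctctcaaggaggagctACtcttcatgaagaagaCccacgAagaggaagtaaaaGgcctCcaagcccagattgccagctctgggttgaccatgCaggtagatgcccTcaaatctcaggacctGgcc
KRT18P28, chr1:182928764-182928913 (-): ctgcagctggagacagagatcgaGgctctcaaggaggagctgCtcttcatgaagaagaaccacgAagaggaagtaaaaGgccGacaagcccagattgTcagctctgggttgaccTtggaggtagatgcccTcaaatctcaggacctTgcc

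Pseudogene peaks made up 6.43% (95% interval 5.47 to 7.49%) of the 2350 PRO peaks on these chromosomes and 4.01% (3.79 to 4.24%) of the 30412 RS peaks. They held 11.0% of PRO peak bases and 5.39% of RS peak bases. Their number was 8.08 times higher in RS (95% interval 6.82 to 9.63), compared with 12.9 times (12.4 to 13.5) for all peaks of these chromosomes and 13.2 times for the other peaks outside coding genes. In bases the ratio was 5.50, from 309 kb in PRO to 1702 kb in RS, against 11.3 for all peaks. The median length was 801 bp in PRO (quartiles 401 and 1801) and 1001 bp in RS (quartiles 601 and 1601). For all peaks it was 601 and 801 bp.

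The ratio varied between kinds of pseudogene. Peaks over processed pseudogenes numbered 65 in PRO and 528 in RS (ratio 8.12, interval 6.27 to 10.7). Those over unprocessed pseudogenes numbered 61 and 564 (ratio 9.25, interval 7.09 to 12.3). The remaining types, such as ribosomal RNA and unitary pseudogenes, had 29 and 157 peaks (ratio 5.41, interval 3.63 to 8.35). Zinc finger pseudogenes, which are also counted in their own type, had 3 and 95 peaks (ratio 31.7, interval 10.5 to 156). The intervals of processed, unprocessed and zinc finger pseudogenes overlapped, and that of zinc finger pseudogenes rests on 3 PRO peaks.

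**Figure D1:**
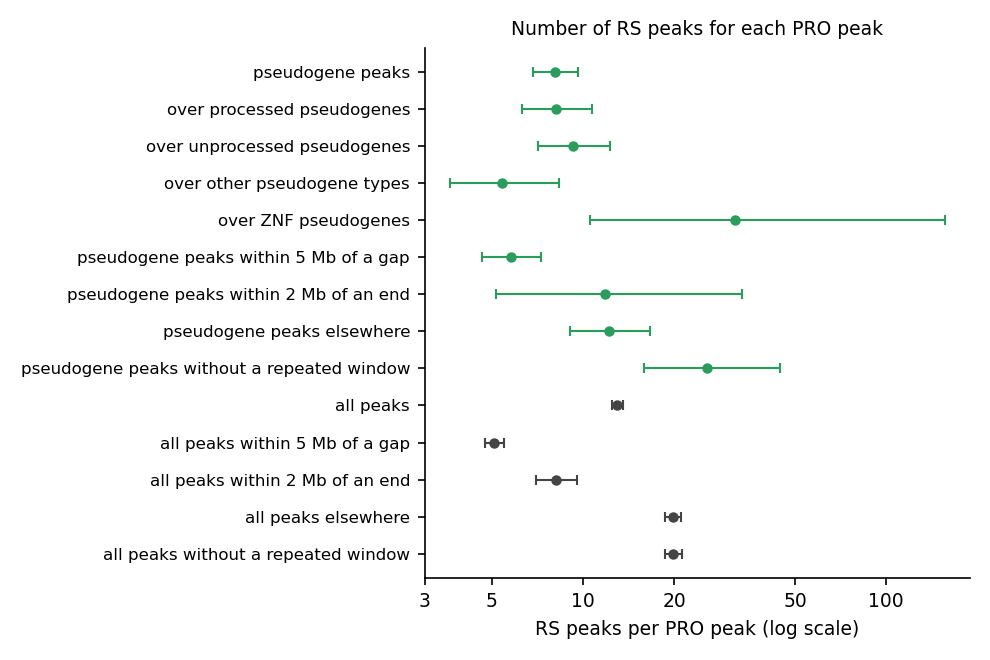
Number of RS peaks for each PRO peak on a logarithmic axis, for pseudogene peaks (green) and all peaks (grey), by type of pseudogene and by place. Points are ratios of the 2 lists and bars are exact 95% intervals of counting error. Pseudogene peaks sit at 8.08 against 12.9 for all peaks, and at 25.7 against 19.9 when peaks with a repeated window are left out.

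Pseudogene peaks held more repeated sequence than peaks in general, as pseudogene bodies do. A repeated window is a stretch of 75 bases that occurs more than once in the assembly on either strand. In PRO, 74.4% of the windows in pseudogene peaks were repeated, against 49.3% in all PRO peaks. In RS the values were 33.2% and 14.7%, and on a regular grid outside coding genes the value was 5.24%. In the bodies of all pseudogenes outside coding genes, with or without a peak, it was 25.8%. Peaks were chosen by their overlap with such bodies, so a share above that of all peaks is partly set by the choice. At least 1 repeated window was held by 134 of 151 PRO peaks (88.7%) and by 783 of 1220 RS peaks (64.2%). Without those peaks the count rose from 17 in PRO to 437 in RS, a ratio of 25.7 (interval 15.9 to 44.5), and all peaks gave 19.9 (18.6 to 21.2). The share of peaks over pseudogenes then was 1.82% in PRO (17 of 936, interval 1.06 to 2.89%) and 2.35% in RS (interval 2.14 to 2.58%), so the intervals overlapped and the PRO share no longer lay above. How far the placement of reads among copies sets these numbers was not tested.

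Pseudogene peaks lay near assembly gaps more often than peaks in general. Gaps here are runs of at least 1 Mb of unknown bases, which stand for centromeres, other heterochromatin and the short arms of acrocentric chromosomes. Of the pseudogene peaks, 63.6% in PRO and 45.4% in RS lay within 5 Mb of a gap, against 40.4% and 15.9% of all peaks and 8.33% of windows of 1001 bp on a grid outside coding genes. Pseudogenes themselves lay there often, since 1943 of the 9434 outside coding genes, with or without a peak, were within 5 Mb of a gap. Near gaps the number went from 96 to 554 (ratio 5.77, interval 4.64 to 7.24), close to the 5.09 of all peaks there. Elsewhere, outside the outer 2 Mb of the chromosomes, it went from 49 to 595 (ratio 12.1, interval 9.07 to 16.6), below the 19.8 (18.7 to 21.0) of all peaks. In the outer 2 Mb it went from 6 to 71 (ratio 11.8, interval 5.18 to 33.3), against 8.14 (6.98 to 9.55) for all peaks. In bases the ratio was 7.51 near gaps, 4.87 elsewhere and 2.64 in the outer 2 Mb. For all peaks these base ratios were 4.67, 19.6 and 7.55, so in the outer 2 Mb bases and counts gave opposite orders. In PRO 10 bins of 1 Mb held 77 of the 151 peaks. The fullest was chr14:19000001-20000000 next to the centromere, with 18 peaks in PRO and 39 in RS. In RS the first 10 bins held 23.8% of the peaks and 255 bins held 1 peak each.

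Seen from the pseudogenes, 9434 of the 13552 on these chromosomes overlapped no coding gene. Of these 9434, 136 (1.44%) had a pseudogene peak in PRO and 823 (8.72%) in RS, and 90 had both. With peaks that also reach a coding gene these counts were 147 and 835. A further 65 RS and 4 PRO pseudogene peaks lay only over pseudogenes that touch a coding gene elsewhere along the body. Over non-coding genes of any kind outside coding genes, pseudogenes included, 1.81% had a PRO peak and 12.3% an RS peak, so pseudogenes as a whole lay below that background. The median body was 714.5 bp for pseudogenes and 1042 bp for that background. Processed pseudogenes, the most numerous, had an RS peak in 411 of 6140 (6.69%, interval 6.08 to 7.35%) and a PRO peak in 46. Unprocessed pseudogenes had an RS peak in 332 of 2410 (13.8%, interval 12.4 to 15.2%) and a PRO peak in 66. Zinc finger pseudogenes had an RS peak in 22 of 46 (47.8%, interval 32.9 to 63.1%) and a PRO peak in 3.

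**Figure D2:**
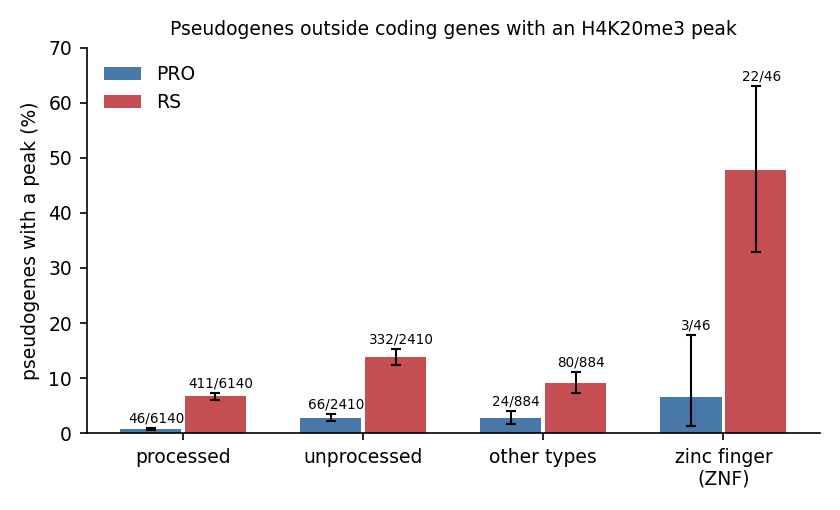
Percentage of pseudogenes outside coding genes that carried a PRO (blue) or an RS peak (red), by type, with exact 95% intervals of counting error and the counts above the bars. Zinc finger pseudogenes reached 47.8% in RS, above the 6.69% of processed and the 13.8% of unprocessed pseudogenes.

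The gap between processed and unprocessed pseudogenes went with body length. The median body was 581 bp for processed and 1573 bp for unprocessed pseudogenes, and a longer body has more room for a peak. Among bodies of over 500 to 1000 bp, 5.74% of processed and 6.09% of unprocessed pseudogenes had an RS peak. Between 1000 and 2000 bp the values were 9.97% and 11.6%, and above 2000 bp they were 20.5% and 20.9%. Only at up to 500 bp did the intervals part, with 3.63% (2.95 to 4.42%) and 6.94% (4.73 to 9.77%). Zinc finger pseudogenes were at 5 of 11 (45.5%, interval 16.8 to 76.6%) between 1000 and 2000 bp, above both. Above 2000 bp they were at 16 of 24 (66.7%, interval 44.7 to 84.4%), but lengths differed there, with medians of 11140 bp for zinc finger, 7776 bp for unprocessed and 3055 bp for processed bodies. Of their 7 bodies of over 500 to 1000 bp, 0 had a peak. Without peaks that hold a repeated window, 3.21% (interval 2.78 to 3.68%) of processed and 3.94% (3.20 to 4.80%) of unprocessed pseudogenes had an RS peak. That setting keeps all bodies, and 1583 of 6140 processed and 1543 of 2410 unprocessed bodies hold a repeated window. Among bodies with a repeated window the shares were 13.6% (11.9 to 15.4%) and 18.5% (16.6 to 20.6%), with median bodies of 849 and 4100 bp. Among bodies without one they were 4.30% (3.73 to 4.93%) and 5.31% (3.91 to 7.01%).

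Base composition moved with the peaks as well. Among processed pseudogenes the share with an RS peak was 3.08% at a GC content of up to 40%, 4.27% from 40 to 45%, 5.57% from 45 to 50%, 8.00% from 50 to 55% and 15.6% above 55%. Processed pseudogenes with an RS peak had a median GC content of 51.2%, and those without had 45.7%. Their ratio of observed to expected CpG, the dinucleotide that carries most DNA methylation, was 0.298 against 0.239. Unprocessed pseudogenes showed a flatter course, from 13.5% at up to 40% GC through 10.8%, 10.9% and 16.3% to 18.8% above 55%. These shares count any touching peak, and body length was not held constant. The median unprocessed body was 2995 bp at up to 40% GC and 1218 bp above 55%, against 564 and 580 bp for processed ones. Between the same GC classes the mean share of the body in RS pseudogene peaks went from 1.796 to 12.45% for unprocessed pseudogenes. For processed ones it went from 0.5898 to 12.24%, so by coverage both types were higher at high GC. Zinc finger pseudogenes had a low median GC content of 39.3%.

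**Figure D3:**
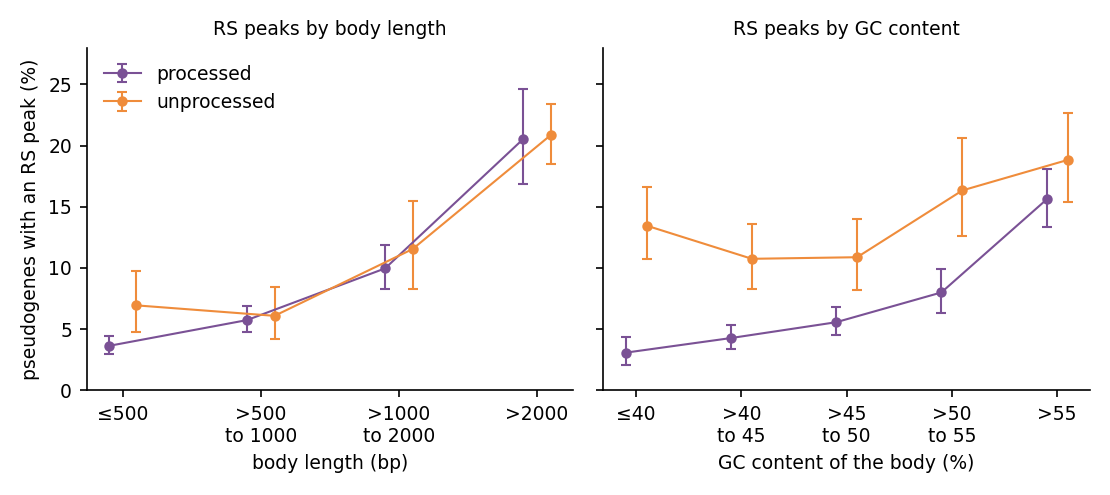
Percentage of processed (purple) and unprocessed (orange) pseudogenes with an RS peak, by body length in bp (left) and GC content in percent (right). Points are percentages and bars are exact 95% intervals of counting error. The types lie together from 500 bp upward, and processed pseudogenes climb from 3.08 to 15.6% with GC content.

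Coverage around the bodies separated the types more clearly. All peaks of a state were used here, and flanks were counted outside coding genes. RS peaks covered on average 4.29% of a processed pseudogene body, 2.85% of the 500 bp on either side and 2.31% at 500 to 1000 bp, and then stayed between 2.19 and 2.41% out to 50 kb. Over the non-coding sequence of these chromosomes RS peaks covered 1.57% and PRO peaks 0.161%. For processed bodies without a repeated window the coverage was 2.86%, against 1.81% and 1.50% in the same flanks. Unprocessed bodies were at 5.28% and their flanks between 4.46 and 5.35% out to 20 kb, so the body did not stand out from its surroundings. Zinc finger bodies were at 19.8% with 20.0% in the first 500 bp, 18.4% at 2 to 5 kb and 7.35% at 20 to 50 kb. For the 25 zinc finger bodies away from gaps and chromosome ends the coverage was 12.5% in the body, 14.3% in the first 500 bp, 7.08% at 1 to 2 kb and 5.63% at 5 to 10 kb, so their level course was shorter. In PRO the coverage was 0.495% of processed, 1.38% of unprocessed and 0.256% of zinc finger bodies.

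**Figure D4:**
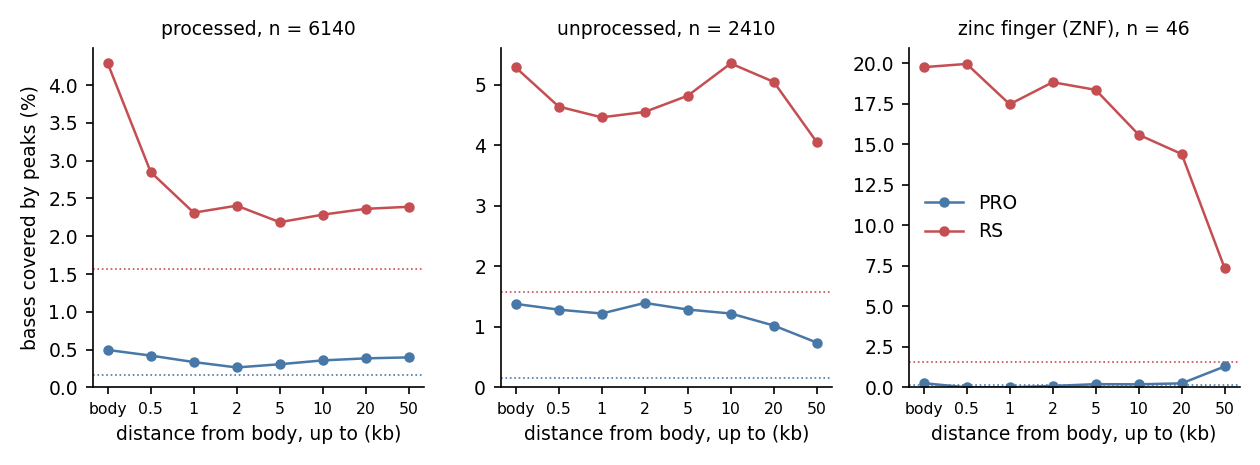
Percentage of bases covered by PRO (blue) and RS peaks (red) in the pseudogene body and in flanks out to 50 kb, for processed, unprocessed and zinc finger pseudogenes. The vertical scales differ between panels, and dotted lines mark the coverage of all non-coding sequence, 0.161% in PRO and 1.57% in RS. The RS coverage falls from the body to 1 kb for processed pseudogenes and stays level to several kb for the other types, in which bodies near gaps and chromosome ends are included.

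Of the processed pseudogenes with an RS peak, 126 of 411 lay wholly inside RS peaks and the median share covered was 71.3%. For unprocessed pseudogenes these values were 47 of 332 and 20.2%. The longest fully covered bodies were named by rule, and those of the REXO1L and DUX4L families are described further below. MED15P6, a transcribed copy of a Mediator subunit gene, spans 3814 bp at chr14:20071088-20074901, had 100% of its body in RS peaks and 0% in PRO peaks, and 72.0% of its windows were repeated. The unnamed processed pseudogenes ENSG00000257884 and ENSG00000257175, also near the chromosome 14 centromere, were fully covered in RS over 2268 and 2254 bp and had 0% in PRO. Among unprocessed pseudogenes, TEKT4P2, a copy of a gene for the tektin family of microtubule proteins of cilia, was fully covered in RS over 5196 bp (chr21:9907247-9912442) and not in PRO. ABCD1P3, a copy of a peroxisomal transporter gene, was fully covered over 3200 bp on chromosome 16, and GUSBP10, a copy of the beta-glucuronidase gene, over 2644 bp on chromosome 7 with 0% of its windows repeated. ENSG00000235095, FAM30B and FAM30C were likewise at 100% in RS and 0% in PRO. These 9 lay within 5 Mb of a gap, but the fully covered REXO1L and DUX4L bodies named by the same rule did not. Of all bodies fully covered in RS, 57 of 126 processed and 24 of 47 unprocessed ones lay near a gap.

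Of the 48 bodies that were fully covered in PRO, those named by rule were members of multicopy families. FAM90A4P had 100% of its 3011 bp in PRO peaks and 46.5% in RS peaks. USP17L14P, a copy of a deubiquitinase gene of a tandem array on chromosome 4, had all of its 1593 bp in PRO peaks. It had 0% in RS pseudogene peaks, but an RS peak that reaches a coding gene covered all of it. The REXO1L pseudogenes, relatives of an RNA exonuclease gene in a tandem array on chromosome 8, carried peaks in both states in 7 of 7 cases. REXO1L9P, REXO1L5P, REXO1L11P and REXO1L10P were at 100% in both states over 3831 to 4023 bp. REXO1L8P was at 88.8% in PRO and 100% in RS. Between 61.9 and 100% of their windows were repeated, with a median of 9 or 10 copies each, and 0 of these 5 bodies overlapped a differential region.

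The longest pseudogene peaks lay in arrays too. In PRO the longest spanned 39601 bp at chr1:228743001-228782601, over the cluster of 5S ribosomal RNA genes, where RNA5SP19 and RNA5SP162 are the pseudogenes. The second, 24401 bp at chr10:135477801-135502201, lay over the DUX4L array near the end of the long arm, and RS had a peak of 21201 bp there from the same start. DUX4L11 and DUX4L12 were at 100% in both states, and DUX4L8 of the chromosome 4 array was at 100% in RS. DUX4L8 had 0% in PRO pseudogene peaks, but a PRO peak that reaches a coding gene covered all of it. The third in PRO, 12601 bp at chr15:102292601-102305201, lay over DNM1P47, a copy of a dynamin gene. The fourth, 9401 bp, lay over REXO1L11P. In RS the next longest were 17801 bp over DUX4L46 and DUX4L47 near the chromosome 16 centromere, with 5.78% of windows repeated, then 17001 bp over REXO1L11P and REXO1L10P, and 14201 bp at chr9:115835801-115850001. Each of these 8 peaks, 4 in each state, shared most of its bases with a peak of the other state, and 0 overlapped a differential region. Of all peaks on these chromosomes, 9.19% in PRO and 43.7% in RS overlapped one.

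Families by symbol gave a wide range. In RS a peak was found for 20 of 37 ANKRD pseudogenes (54.1%, interval 36.9 to 70.5%), copies of ankyrin repeat genes of which 24 lay near a gap, and for 17 of 31 DUX pseudogenes (54.8%, interval 36.0 to 72.7%). With peaks that also reach a coding gene the DUX count was 23 of 31, since such a peak covered 6 more copies of the chromosome 4 array in full. It was found for 19 of 98 keratin pseudogenes (19.4%, interval 12.1 to 28.6%), copies of genes for epithelial intermediate filaments. It was found for 28 of 874 ribosomal protein pseudogenes (3.20%, interval 2.14 to 4.60%) and 10 of 348 olfactory receptor pseudogenes (2.87%, interval 1.39 to 5.22%). Copies of mitochondrial DNA had an RS peak in 8 of 285 cases (2.81%, interval 1.22 to 5.46%), and immunoglobulin and T cell receptor pseudogenes in 2 of 236 (0.848%, interval 0.103 to 3.03%). Of 20 pseudogenes of cytochrome c (CYCS) and 6 of NANOG or POU5F1, 0 had a peak in either state. GOLGA pseudogenes had an RS peak in 5 of 16 and GAPDH pseudogenes, copies of a glycolytic enzyme gene, in 4 of 36. These families differ in length and composition. ANKRD copies had a median body of 16910 bp. RS pseudogene peaks covered 3.15% of their bases, against 3.24% for all pseudogenes outside coding genes and 24.1% for DUX copies. Ribosomal protein copies had a median body of 479 bp, and processed pseudogenes of up to 500 bp were at 3.63%, inside the interval of that family. Keratin copies had a median body of 1299 bp and a median GC content of 55.8%, and processed pseudogenes were at 9.97% between 1000 and 2000 bp and at 15.6% above 55% GC.

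The keratin pseudogenes with an RS peak were few enough to describe singly. The share of the body in RS peaks was 100% in KRT8P35, 99.3% in KRT19P1, 98.3% in KRT18P19, 93.7% in KRT18P38, 90.8% in KRT18P54 and 90.1% in KRT18P35. It exceeded 50% in 13 of 19, and in 15 of 19 the body held no repeated window. KRT18P50 alone had a PRO peak as well, over 96.6% of its body against 48.4% in RS. The median GC content was 55.7% with and 55.8% without an RS peak, whereas the median CpG ratio was 0.369 with and 0.261 without. Most of the 19 copies come from KRT8 and KRT18, the keratins of simple epithelia, whose pseudogenes had a peak in 16 of 68 cases (23.5%, interval 14.1 to 35.4%), with CpG ratios of 0.356 and 0.311.

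The zinc finger pseudogenes with an RS peak ranged from full to slight coverage. ZNF322P1, an intronless copy at chr9:99960585-99961793 with 8 finger units, was wholly inside RS peaks and had no PRO peak. ZNF317P1 (1027 bp) was wholly inside RS peaks too, and ZNF519P3 had 89.1% of its 1032 bp covered. Among the longer bodies, ZNF733P (12471 bp) had 55.9% and ZNF734P (6869 bp) 47.6% covered on chromosome 7, and ZNF252P (23534 bp) had 41.0%. ZNF971P and ZNF402P were at 39.1% and 39.0%. Repeated windows made up 80.4% of ZNF322P1, 92.3% of ZNF519P3, 88.3% of ZNF733P and 87.1% of ZNF734P. In ZNF317P1, ZNF252P, ZNF971P and ZNF402P they made up 0 to 2.46%. Whether each repeated copy carried the mark itself was not tested. PRO peaks were found on ZNF72P, ZNF962P and ZNF271P, over 5.88%, 3.29% and 2.63% of the body, and these 3 had 27.0%, 30.7% and 17.9% in RS. ZNF37BP, which the rule takes as the fourth by length, had 0% in PRO and 27.0% in RS. Of the 24 without an RS peak, ZNF840P held 18 finger units over 8180 bp.

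**Figure D5:**
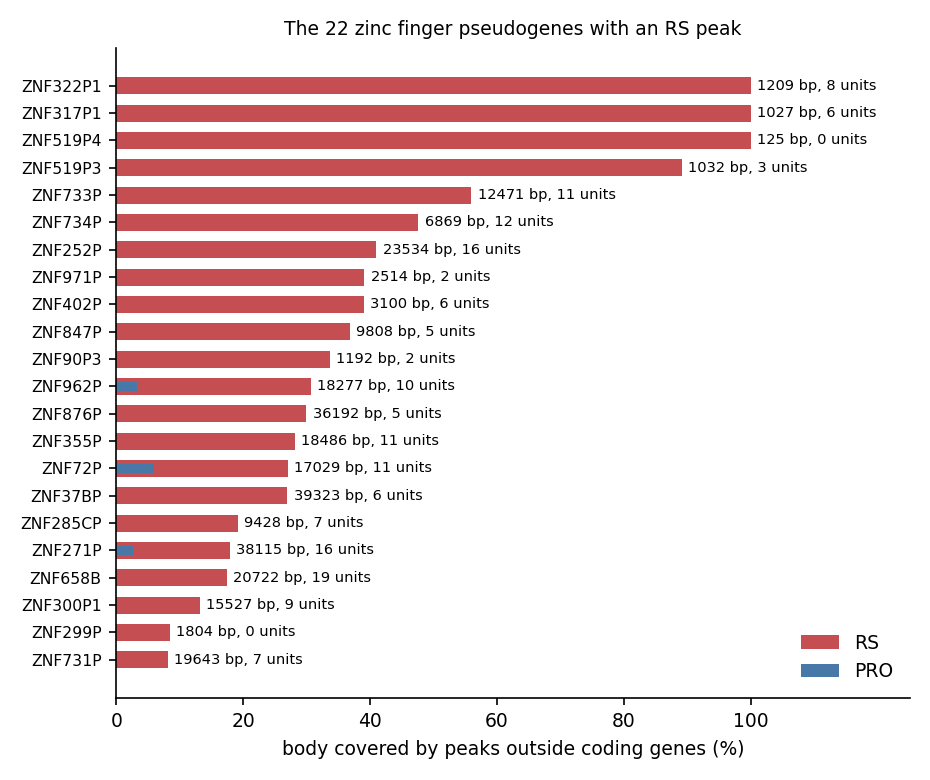
Share of the body, in percent, inside RS (red) and PRO (blue) pseudogene peaks for the 22 zinc finger pseudogenes with an RS peak, with body length and number of finger units beside each bar. RS shares run from 8.17% in ZNF731P to 100%, and PRO peaks occur on 3 of them, over at most 5.88% of the body.

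Within these pseudogenes a larger share of the finger units than of the bases lay in RS peaks. The 46 bodies held 233 units in 38 pseudogenes, all 233 on the strand of the pseudogene. Of these units 96 (41.2%) lay in RS pseudogene peaks, which covered 22.3% of the bases. Units of 1 body are neighbours, and the 96 came from 14 of the 38 pseudogenes with a unit. In the 22 with an RS peak it was 96 of 172 units (55.8%) against 27.7% of the bases. The 3′ side of the body, where the finger exon of a zinc finger gene usually lies, held 60.0% of the covered bases, and more of the covered bases lay on the 3′ side in 15 of the 22. An RS peak was found for 17 of 20 pseudogenes with at least 5 units (85.0%, interval 62.1 to 96.8%) and for 3 of 18 with 1 to 4 units (16.7%, interval 3.58 to 41.4%), but the median body was 14000 bp in the first set and 1194 bp in the second. A pseudogene within 100 kb of a coding zinc finger gene had an RS peak in 71 of 419 cases (17.0%, interval 13.5 to 20.9%), and those farther away in 752 of 9015 (8.34%, interval 7.78 to 8.93%).

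The sequence of the RS peaks was searched as well. Peaks over zinc finger pseudogenes were chosen by the bodies under them, most of which hold finger units. Their higher shares of units and of the motif below therefore follow from the choice and are no separate support. A finger unit was found in 13 of the 95 peaks over zinc finger pseudogenes (13.7%), in 34 of all 1220 (2.79%), in 0.793% of all RS peaks and in 0.235% of windows of 1001 bp on the grid. The motif TGGAGAGAAACC, the 12-mer found most often in the coding exons of coding ZNF genes (972 occurrences), was searched on both strands. It occurred in 6 of the 95 peaks (6.32%), in 7 of all 1220 (0.574%), in 0.224% of all RS peaks and in 0.0285% of the grid windows. The 1125 RS pseudogene peaks over no ZNF pseudogene held it in 1 case (0.0889%), below the share of all RS peaks. In the linker stretches printed above it is present in ZNF733P, ZNF734P and ZNF204P. Outside the ZNF symbols, 21 RS pseudogene peaks held a finger unit. The most units, 9, lay in the peak over ZKSCAN8P2 at chr6:28155001-28157201, and VEZF1P1 and SALL4P6, copies of other zinc finger genes, each held 1.

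Transcribed pseudogenes were longer. Transcribed processed pseudogenes had an RS peak in 47 of 254 cases (18.5%) and untranscribed ones in 364 of 5885 (6.19%), with median bodies of 2638 and 564 bp. Between 500 and 2000 bp the values were 4 of 67 (5.97%) and 220 of 2985 (7.37%). Very long bodies took a large part of the peaks, since 421 RS peaks (34.5%) and 58 PRO peaks (38.4%) lay only over pseudogenes of more than 20 kb. Annotations with many RS peaks were SLC44A3-AS1 with 18, RHPN2P1 with 15 and OFCC1, MIR3171HG and ZNF876P with 12 each, over bodies of 36192 to 615499 bp. The symbols SLC44A3-AS1 and MIR3171HG are those of RNA genes, although the annotation gives them a pseudogene type.

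The retention of the mark in senescence was then followed. Of the 151 PRO pseudogene peaks, 80 (53.0%, interval 44.7 to 61.1%) overlapped an RS peak, against 51.6% of all PRO peaks on these chromosomes. The share was 61.5% for processed, 50.8% for unprocessed and 41.4% for other types, with overlapping intervals, and 3 of 3 for zinc finger pseudogenes. The 80 retained peaks had a median length of 1601 bp and 77.8% repeated windows, and the other 71 had 601 bp and 53.5%. In the other direction, 79 RS pseudogene peaks (6.48%, interval 5.16 to 8.01%) overlapped a PRO peak, against 3.49% of all RS peaks. Among RS pseudogene peaks with a repeated window it was 9.07%, and among those without it was 1.83%, against 6.44% and 1.61% of all RS peaks split the same way.

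Of the 136 pseudogenes with a PRO peak, 46 had no RS pseudogene peak, and 45 of these had no RS peak of any kind. Counted by peak, 71 of the 151 PRO pseudogene peaks and 1137 of all 2350 PRO peaks overlapped no RS peak. The matching count for other non-coding genes was not made, so the 46 are not set apart from that background. In 17 of the 46 the PRO peak covered under 5% of the body. The 12 that were wholly inside PRO peaks included DDX11L8 (1192 bp), a copy of a helicase gene at the end of chromosome 12, and LONRF2P3 (535 bp) and ENSG00000224881 (888 bp) within 5 Mb of a gap. At least 1 repeated window was present in 36 of the 46 and in 84 of the 90 with peaks in both states.

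Differential regions, which the authors called between PRO and RS from both antibodies, give no direction in the list used here, and that list is shorter than the study describes. They overlapped 509 of the 1220 RS pseudogene peaks (41.7%, interval 38.9 to 44.6%), against 43.7% of all RS peaks. Processed and unprocessed pseudogenes were alike at 40.9% and 42.9%, and peaks over zinc finger pseudogenes were at 70 of 95 (73.7%, interval 63.7 to 82.2%). Of PRO pseudogene peaks 10 (6.62%, interval 3.22 to 11.8%) overlapped a differential region, against 9.19% of all PRO peaks. RS pseudogene peaks over a differential region had 23.7% repeated windows and the others had 39.7%. A differential region was met by 48.7% of the RS pseudogene peaks without a repeated window and by 37.8% of those with one, against 46.2% and 39.9% of all RS peaks. Each of the 509 peaks lay wholly inside differential regions. So did all 13298 RS peaks that overlapped one, so this is a property of the lists and not of pseudogene peaks.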

How the data were processed

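H4K20me3 was profiled by ChIP-seq in 4 samples of IMR90 cells, 2 in PRO and 2 in RS. Per the study's methods and the submitters' processing notes, the authors trimmed single-end reads with Trim Galore 0.3.0, aligned them to hg19 with Bowtie2 2.1.0 and ran SICER 1.1, which joins enriched windows (here 200 bp each) into domains, against a total H4 control ChIP. Domains found with both antibodies in a state were kept by the authors, who called differential regions with DiffBind 1.8.3. The deposited lists hold positions in bases without a score, so intervals rest on counts of regions and not on the read depth of a sample. Per the study's supplement, the 4 libraries differed in aligned reads and in the share of duplicate reads. How far this affected the number of peaks in each state was not tested. Starts lay on a grid of 200 bp and ends 1 base past it, so neighbouring domains can share 1 base. Reads from identical copies can be placed at any copy.

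Overlaps with GENCODE release 44 gene bodies were counted from 1 shared base with numpy 2.4.6 and pandas 2.3.3, after the functions had been checked against bedtools 2.31.1. Sequences came from GRCh37 through pysam 0.24.0, and exact Clopper-Pearson intervals from scipy 1.17.1. Intervals of a ratio of RS to PRO came from the exact interval of the RS share of both counts. Repeated windows were counted at steps of 25 bases, and the grid windows were spaced by 20000 bases (5000 for repeated windows). A pseudogene counted as carrying a peak when a pseudogene peak touched its body. Processed and unprocessed types followed the annotation, with transcribed and translated forms included. Bodies of at least 500 bp were named when they were among the 8 most covered in RS or the 4 most covered in PRO of their type (processed and unprocessed without ZNF, and ZNF), ties going to the longer body, together with the 4 longest pseudogene peaks of each state. The other names came from family lists or were chosen after their values were seen. The members, families and measures were chosen with earlier results of these data known. No test between PRO and RS was possible with 1 merged list per state.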

Additional observations from a re-analysis of the deposited data

How the results depend on the processing

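Each of the 8 values was recomputed under 11 alternatives, of which 3 were chosen after seeing the data: ends lowered by 1 base, no pseudogene bodies over 20 kb, and nothing within 5 Mb of a gap. Of 88 values, 56 stayed inside the 95% interval of the reported value and 32 moved out of it, and the cause was not tested. The ratio of RS to PRO pseudogene peaks was above 1 throughout and moved from 8.08 to 9.91 with peaks of at least 1000 bp, 25.7 without repeated windows and 12.1 away from gaps. The share of RS peaks moved from 4.01% to 3.69% with 200 shared bases, 3.22% with the peak centre inside the body, 4.94% with peaks of at least 1000 bp, 4.65% with peaks over coding genes kept, 2.35% without repeated windows, 2.63% without bodies over 20 kb and 2.60% away from gaps. The share of PRO peaks moved from 6.43% to 4.94% by the centre, 9.41% with peaks of at least 1000 bp, 7.62% with coding genes kept, 1.82% without repeated windows, 3.96% without long bodies and 3.93% away from gaps. It was above the RS share in all but the setting without repeated windows, where the intervals overlapped. Processed pseudogenes with an RS peak moved from 6.69% to 5.80% with 200 shared bases, 4.25% by the centre, 4.53% with peaks of at least 1000 bp, 3.21% without repeated windows and 4.91% away from gaps. Unprocessed pseudogenes moved from 13.8% to 11.0% by the centre, 9.25% with peaks of at least 1000 bp, 3.94% without repeated windows, 11.1% without long bodies and 9.34% away from gaps. Zinc finger pseudogenes moved from 47.8% to 26.1% without repeated windows, and were between 37.0 and 50.0% otherwise. PRO pseudogene peaks over an RS peak moved from 53.0% to 66.2% with peaks of at least 1000 bp, 35.3% (6 of 17) without repeated windows and 62.4% without long bodies. RS pseudogene peaks over a differential region moved from 41.7% to 48.7% without repeated windows and 51.2% away from gaps. No paired analysis was possible because each state has 1 list merged over both antibodies, and leaving out an antibody could not be run for the same reason. The lists hold no read counts, and a pseudogene without a peak is one in which none was called with both antibodies, not one without the mark.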

Other observations

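Pseudogenes that the rule leaves out carried RS peaks as well, counted here with peaks of any kind. On chromosome 19, which holds many zinc finger genes, 83 of 354 pseudogenes outside coding genes had an RS peak (23.5%, interval 19.1 to 28.2%) and 4 a PRO peak. Processed and unprocessed pseudogenes of chromosome 19 were close to each other, at 38 of 173 and 43 of 165 (26.1%), and zinc finger pseudogenes were at 8 of 12 (66.7%, interval 34.9 to 90.1%). Of the 4118 pseudogenes of the other chromosomes that overlap a coding gene, 169 had an RS peak (4.10%, interval 3.52 to 4.76%) and 27 a PRO peak. Among these, 114 of 3299 processed (3.46%), 35 of 430 unprocessed (8.14%) and 4 of 15 zinc finger pseudogenes had an RS peak.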
